A study of Mus musculus with 5 samples.

Results

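The 7 genes described here encode acyl-CoA thioesterases: Acot1, Acot2, Acot7, Acot8, Acot9, Acot11 and Acot13. They were taken by gene name from a table of 15116 genes measured in mouse hearts, and all 7 were listed with a value above 0 in both groups. The list was chosen for the higher level of Acot2 in knockout hearts, so the differences of these 7 genes between the groups are given as a description, with no test. Immt encodes Mic60, a core subunit of the complex that holds the cristae junctions of the inner mitochondrial membrane together. The control group held 3 hearts of Immt+/+-Myh6-Cre mice and the knockout group 2 hearts of Immtfl/fl-Myh6-MCM mice, in which a tamoxifen-activated MerCreMer recombinase removes the floxed exon 4 of Immt. All 5 samples are labelled as given tamoxifen, which the design places at 6 weeks of age, and the knockout hearts were collected 10 weeks after it. The control labels give no collection time, and the design describes these mice as being of the same age.

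The Myh6 promoter drives both recombinases in cardiomyocytes, so other cells of a knockout heart keep Immt. The groups differ in the transgene as well as in the Immt alleles: control mice carried a constitutive Cre and knockout mice MerCreMer, and the effects of the transgene and of the deletion cannot be told apart in this comparison. Esr1, the mouse gene from which the hormone-binding part of MerCreMer was taken, was at 0.871 ± 0.179 CPM (reads of a gene set to one library size for all samples; deposited mean ± SD over libraries, here and below) over the controls, whereas in the 2 knockout hearts it reached 458 ± 27.4 CPM. Immt itself was at 254 ± 7.76 CPM in control and 17.9 ± 2.72 CPM in knockout hearts, 7.04% of the control level. The libraries read transcript 3′ ends, which lie outside exon 4, so the Immt value is a level of the remaining transcript and no direct measure of the deletion. The 4 Y-linked genes Ddx3y, Eif2s3y, Uty and Kdm5d had group means between 4.15 and 34.7 CPM, and Xist was not listed. Effective library sizes worked back from the table ran from 12.1161 M to 13.6361 M reads in control and from 14.0699 M to 15.2021 M reads in knockout libraries, so that 1 read was worth between 0.0658 and 0.0825 CPM.

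Acyl-CoA thioesterases hydrolyse the thioester bond of a fatty acyl-CoA and release a free fatty acid and coenzyme A. They act against the acyl-CoA synthetases, which spend ATP to make the same bond, and so set how much coenzyme A is bound in acyl form in each compartment of the cell. The heart burns fatty acids as its main fuel, and in rodent heart several Acot genes are known targets of PPARα, the nuclear receptor that fatty acids activate. The family has one structural type that arose by gene duplication (Acot1 to Acot6) and another, built on the hotdog fold, that holds the remaining members. The product of Acot2 works in the mitochondrial matrix and that of Acot1 in the cytosol on the same long-chain substrates.

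Acot1 and Acot2 lie beside each other on mouse chromosome 12, and in the GENCODE M21 annotation of build GRCm38 their coding sequences are 1257 and 1359 bases long. Over 1232 aligned coding bases, 1178 were identical, which is 95.6%. The first coding bases are shown because they hold a visible difference between both genes. The Acot2 coding sequence has 123 extra bases (41 codons) at its 5′ end, printed in capitals. It continues in lower case with the part that aligns with the first 60 coding bases of Acot1. The genes also differ in length elsewhere, as only 1232 of the 1257 coding bases of Acot1 were aligned. The Acot2 stretch spans chr12:83987902-83988084 and that of Acot1 chr12:84009510-84009569, both on the plus strand. The extra codons carry the signal that sends Acot2 to mitochondria.
Acot1 coding start: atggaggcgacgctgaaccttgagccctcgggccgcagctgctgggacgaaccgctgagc
Acot2 coding start: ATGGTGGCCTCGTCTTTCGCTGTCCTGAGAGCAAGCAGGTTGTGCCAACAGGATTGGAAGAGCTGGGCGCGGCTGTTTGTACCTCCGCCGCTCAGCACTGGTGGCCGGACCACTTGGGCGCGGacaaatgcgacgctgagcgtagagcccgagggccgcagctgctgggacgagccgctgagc

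The 250 bases before the RefSeq start of each gene (GRCm38.p6, plus strand) are shown because both genes stood higher in knockout hearts. They span chr12:84009252-84009501 for Acot1 and chr12:83987611-83987860 for Acot2. Capitals mark the letters CCAAT or their reverse complement. RefSeq promoters were matched for 6 of the 7 genes.
Acot1 promoter: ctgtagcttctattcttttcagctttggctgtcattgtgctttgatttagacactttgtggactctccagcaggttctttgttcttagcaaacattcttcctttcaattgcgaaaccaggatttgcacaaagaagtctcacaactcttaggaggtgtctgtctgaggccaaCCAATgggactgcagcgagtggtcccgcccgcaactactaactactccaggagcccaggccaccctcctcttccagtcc
Acot2 promoter: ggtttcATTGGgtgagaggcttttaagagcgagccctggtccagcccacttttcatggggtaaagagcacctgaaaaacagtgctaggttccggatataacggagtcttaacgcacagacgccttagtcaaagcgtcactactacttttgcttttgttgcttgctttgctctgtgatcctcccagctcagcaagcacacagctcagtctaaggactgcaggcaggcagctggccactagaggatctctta
Letters of 7 motifs were searched for on both strands. CCAAT was found once in each promoter, beginning 79 bases before the start in Acot1 and, in reverse, 244 bases before it in Acot2, and 34.5% of 27025 promoters of the same length held it. The other 6 were in neither promoter: the direct repeat bound by PPARα with its partner receptor, in 0.037% of all promoters; AGGTCA, the unit of that repeat, in 13.8%; TGATGNAA, bound by ATF4 with a C/EBP partner, in 3.53%; TGACNNNGC, an antioxidant response element, in 10.1%; CACGTG, an E-box, in 6.05%; and TATAAA in 13% of all promoters. A match is a run of letters and not a measured binding site, and a missing match says only that these letters are not in this window.

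Acot2 had the largest difference of the 7 genes in both CPM and ratio. Its level was 31.6 ± 2.17 CPM in control and 165 ± 13.9 CPM in knockout hearts, a 5.22-fold higher mean (log2 ratio 2.38 ± 0.10, SE). The 2 knockout libraries were at 155 and 175 CPM, and the deposited SD allows no control library outside 29.1 to 34.1 CPM. Every knockout library thus lay above every control library, by at least 121 CPM. Of the 9103 genes whose mean was 5 CPM or more, 26 (0.286%) had a larger ratio, a rank given as description since the gene was chosen by it.

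Acot1, the cytosolic counterpart, was at 2.46 ± 0.746 CPM in control and 6.53 ± 0.287 CPM in knockout hearts, 2.65-fold higher (log2 ratio 1.41 ± 0.26). The control libraries were at 1.61, 3.01 and 2.76 CPM (22, 41 and 33.5 reads) and the knockout libraries at 6.33 and 6.73 CPM. One control library was lower than the others, and both knockout libraries lay above all 3 control libraries. A value of 33.5 reads means that a read was split between features. No set of whole reads, or of reads split in 2, gave the deposited values of Acot2 in either group or of Acot1 in knockout hearts, so some of their reads were counted in part. Which features shared those reads was not tested. The summed level of the 2 genes was 34.1 CPM in control and 172 CPM in knockout hearts, 5.03-fold higher.

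Tag reads come from the 3′ end, where the transcripts of the pair were unlike each other. Of 451 windows of 50 bases in the last 500 bases of the transcript, 0 of Acot1 and 2 of Acot2 occurred in a transcript of another gene, the latter in Gm13016. Beyond the stop codon, 0 of 943 windows of Acot1 and 0 of 744 windows of Acot2 occurred in the other of the pair. In any other gene, 34 of these Acot1 windows and 2 of these Acot2 windows occurred. Over the whole transcripts, 527 windows were shared by both, 23.7% of those of Acot1 and 24.5% of those of Acot2, none of them wholly after the stop codon. Of the other members, Acot9 shared 88 of its last 451 windows (19.5%) with Acot10, an intronless relative, and Acot7, Acot8, Acot11 and Acot13 shared 0.

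**Figure D1:**
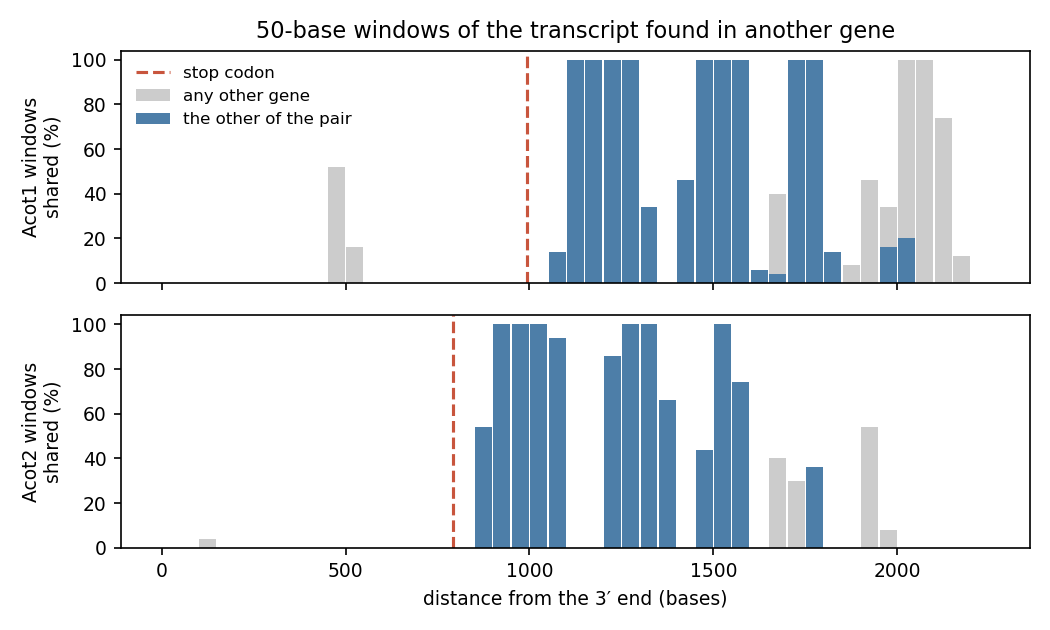
Share of 50-base windows of the Acot1 and Acot2 transcripts that occur in another gene (per cent, y axis) by distance from the 3′ end in bases (x axis). Blue bars are windows found in the other gene of the pair and grey bars those found in any other gene. The blue bars begin only past the dashed line of the stop codon, which lies 992 bases from the end in Acot1 and 793 in Acot2.

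Acot13 (also called Them2), which sits at the mitochondrial surface and prefers long-chain acyl-CoA, was the most abundant member in tags. The control libraries were at 288, 292 and 297 CPM (3929, 3980 and 3602 reads) and the knockout libraries at 270 and 251 CPM (4098 and 3536 reads). The group means were 293 ± 4.59 and 260 ± 12.9 CPM, a ratio of 0.890 (log2 ratio -0.17 ± 0.05). Both knockout libraries lay below all 3 control libraries in the deposited normalization. When both columns were scaled to the same total, which moved every log2 ratio up by 0.13 and the median of all genes from -0.03 to 0.10, the log2 ratio of Acot13 was -0.04 and its groups overlapped.

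Acot9, a mitochondrial thioesterase with a broad substrate range, was at 13.2 ± 0.815 CPM in control and 16.7 ± 0.236 CPM in knockout hearts (1.26-fold, log2 ratio 0.34 ± 0.05). Its control libraries were at 13.5, 12.3 and 13.9 CPM (183.5, 167.5 and 168 reads), and its knockout libraries at 16.5 and 16.8 CPM (251 and 237 reads). No knockout library was as low as a control library.

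Acot7, a cytosolic enzyme best known from brain, hardly differed between the groups. Its control libraries were at 22.2, 23.8 and 23.3 CPM and its knockout libraries at 21.8 and 23.7 CPM, so the groups overlapped (23.1 ± 0.796 and 22.8 ± 1.39 CPM, log2 ratio -0.02 ± 0.07). Acot8, the peroxisomal member with the widest substrate range, was at 4.69, 4.04 and 5.12 CPM (64, 55 and 62 reads) in control and at 3.42 and 4.05 CPM (52 and 57 reads) in knockout libraries. The higher knockout library reached the lowest control library, and the log2 ratio was -0.31 ± 0.16.

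Acot11 (Them1), a thioesterase with a lipid-binding domain that is best known from brown fat, was at 5.94, 5.65 and 8.17 CPM (81, 77 and 99 reads) in control and at 4.93 and 4.83 CPM (75 and 68 reads) in knockout libraries. The groups did not overlap, and 1 control library stood well above the other 2. The means were 6.59 ± 1.38 and 4.88 ± 0.0711 CPM (log2 ratio -0.43 ± 0.18), and without the highest control library the log2 ratio was -0.25. Under equal totals the knockout libraries reached into the range that the control SD allows. They stayed below every control library worked back.

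By the deposited values, 5 of the 7 genes did not overlap between the groups, 3 of them higher (Acot1, Acot2 and Acot9) and 2 lower (Acot11 and Acot13) in knockout hearts. Of all 15116 genes, 48.4% did not overlap, 24.5% higher and 23.9% lower, so nothing is read from these counts. The median log2 ratio of the 7 genes was -0.02, beside -0.03 over all genes. Members also differed in spread. The coefficient of variation ran from 1.57% (Acot13) to 30.3% (Acot1) in control and from 1.41% (Acot9) to 11.9% (Acot8) in knockout hearts. The medians over the 9103 genes of at least 5 CPM were 8.30% and 5.28%. Acot1 and Acot8 lay below that level and are not among those genes.

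**Figure D2:**
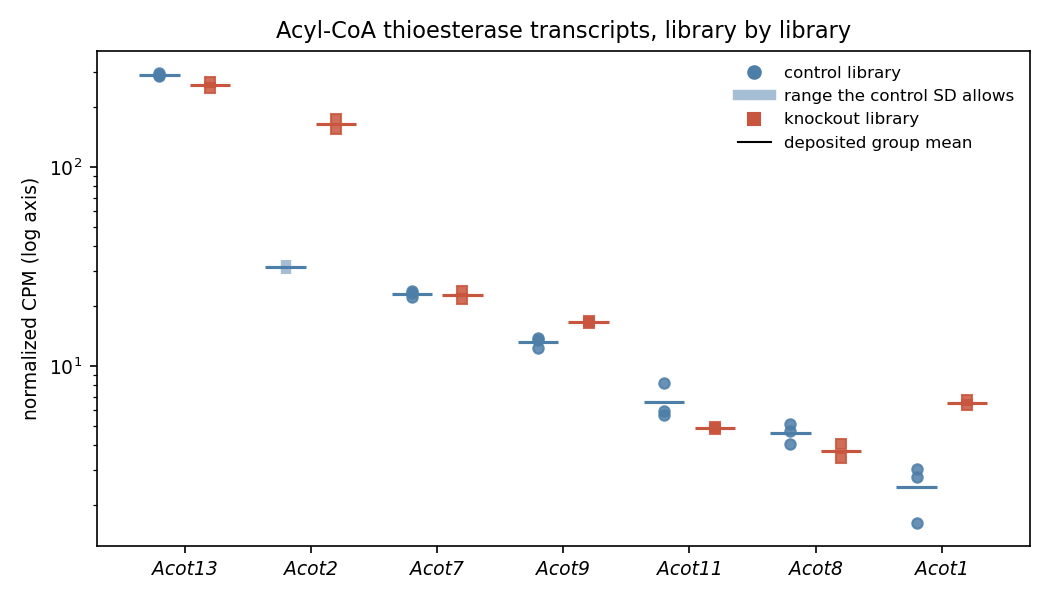
Normalized CPM (log axis) of the 7 thioesterase genes, ordered by control mean. Circles are control and squares knockout libraries, horizontal lines the deposited means, and the pale bar of Acot2 the range its control SD allows (29.1 to 34.1 CPM). Acot1, Acot2 and Acot9 have knockout squares above every control value, while those of Acot7 and Acot8 overlap.

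Tags count transcript ends, so levels can be ordered without division by length. In control hearts the order was Acot13, Acot2, Acot7, Acot9, Acot11, Acot8 and Acot1. Of the ranges that the control SDs allow, only those of the neighbours Acot11 and Acot8 overlapped. Their control libraries worked back did not, with the lowest of Acot11 at 5.65 CPM and the highest of Acot8 at 5.12 CPM. In knockout hearts the order was Acot13, Acot2, Acot7, Acot9, Acot1, Acot11 and Acot8, with no overlap between neighbours. Acot13 stood 9.25-fold above Acot2 in control and 1.58-fold above it in knockout hearts. The sum of the 7 means was 374 CPM in control and 480 CPM in knockout hearts, 1.28-fold higher. Acot2 made up 8.45% of that sum in control and 34.4% in knockout hearts, and Acot13 made up 78.2% and 54.3%. Without Acot2 the sum was 342 CPM in control and 315 CPM in knockout hearts, a log2 ratio of -0.12. Scaling to equal totals moves every log2 ratio up by 0.13, so this lower sum depends on the normalization.

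**Figure D3:**
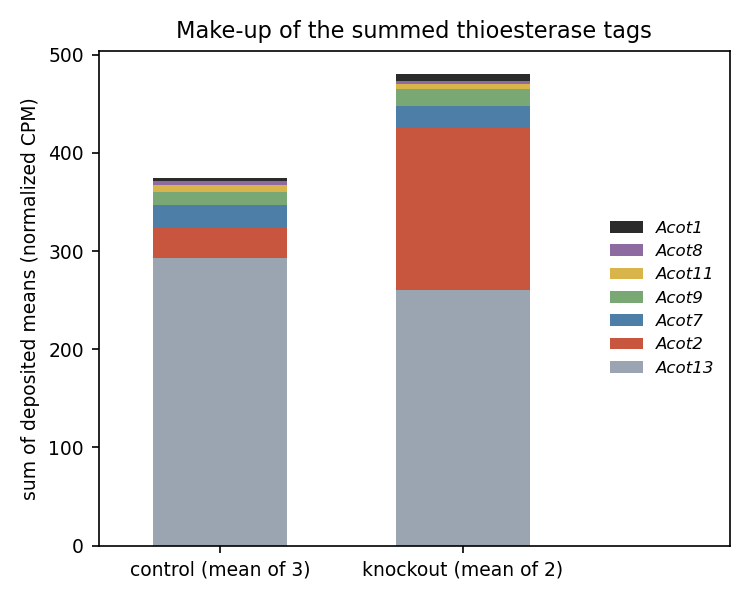
Stacked deposited means of the 7 genes in normalized CPM (y axis from 0) for control and knockout hearts. The Acot2 segment goes from 31.6 to 165 CPM, and the total from 374 to 480 CPM.

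To set these genes beside their relatives, the other thioesterase genes of the mouse were looked up, and 6 of 12 were listed. The limma moderated test, adjusted by Benjamini-Hochberg over all 15116 genes, passed 3 of them as higher and 1 as lower, whereas 13.2% of all genes passed as higher and 13.0% as lower. Acot4, a peroxisomal member of the chromosome 12 cluster, rose from 0.550 to 1.56 CPM (7, 11 and 4 reads against 28 and 18 reads, adjusted p = 0.025). Acot6 of the same cluster was at 1.78 and 2.50 CPM (adjusted p = 0.14). Them4, a mitochondrial thioesterase, rose from 12.4 ± 1.55 to 17.6 ± 0.389 CPM (149, 168 and 170 reads against 272 and 244 reads, adjusted p = 0.020). Hibch, which hydrolyses 3-hydroxyisobutyryl-CoA in valine breakdown, rose from 49.4 ± 0.921 to 60.0 ± 1.90 CPM (adjusted p = 0.023). Them6, a membrane protein related to the thioesterases, fell from 5.62 ± 0.410 to 1.64 ± 0.104 CPM (77, 82 and 63 reads against 26 and 22 reads, adjusted p = 0.00022). Baat, which conjugates bile acids, was at 0.709 and 1.28 CPM (adjusted p = 0.15). With 1 knockout library alone, only the fall of Them6 passed, and with no trend the call of Hibch was lost (adjusted p = 0.090).

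**Figure D4:**
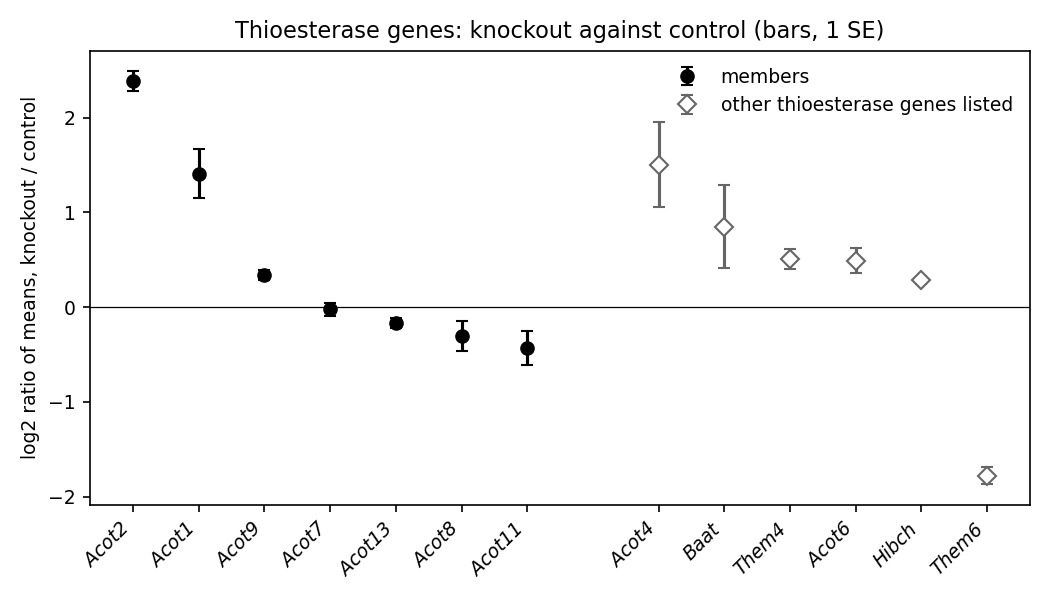
Log2 ratio of the deposited means, knockout over control (y axis), for the 7 members (filled circles) and the 6 other listed thioesterase genes (open diamonds), with bars of 1 SE. Acot2 at 2.38 and Acot4 stand highest in their sets, and Them6 at -1.78 lowest.

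Riox1, a histone demethylase gene, was the only listed gene outside the family within 5 annotated genes of Acot1 or Acot2. It rose from 2.47 ± 0.235 to 3.87 ± 0.260 CPM (limma, adjusted p = 0.036), 1.57-fold, a call lost with 1 knockout library alone (adjusted p = 0.28 or 0.10). Around the other members, 4 of 4 listed neighbours of Acot7 fell (2 under equal totals), 1 of 8 of Acot8 and 1 of 3 of Acot11 fell, 0 of 2 of Acot9 passed the limma test (0 at an unadjusted p below 0.05), and of 5 neighbours of Acot13 1 rose and 1 fell.

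Each count in the lists and markers below stands beside the 13.2% of all genes that passed as higher and the 13.0% as lower. Of 12 listed synthetases, which make the substrates of the thioesterases, 0 passed the limma test as higher and 5 as lower. The median log2 ratio of the synthetases was -0.22. At an unadjusted p below 0.05, the counts were 0 and 6. Under scaling to equal totals 0 passed as higher and 2 as lower (Acsl3 and Acsl4), with no trend in the prior variance 0 and 3, and with 1 knockout library alone 0 and 1 (Acsl3). Acsl1, the main long-chain synthetase of the heart, fell from 232 to 197 CPM (limma, adjusted p = 0.022, but 0.23 under equal totals and 0.14 with no trend), Acsl3 from 6.64 to 2.34 CPM (0.0018 on the same test), Acsl4 from 9.30 to 6.15 CPM (0.010) and the transporter gene Slc27a4 from 8.30 to 5.93 CPM (0.033, but 0.094 under equal totals). Of 12 listed genes of coenzyme A synthesis and breakdown, 2 rose and 2 fell, with a median of -0.07. Nudt8, a mitochondrial enzyme that cleaves coenzyme A, rose from 27.0 to 44.8 CPM (adjusted p = 0.00053), and Coasy, which makes the last steps of coenzyme A synthesis, from 8.13 to 12.2 CPM (0.024). Dbi, the acyl-CoA binding protein, fell from 313 to 223 CPM (adjusted p = 0.0019), and Slc25a42, the mitochondrial coenzyme A carrier, from 38.0 to 25.5 CPM (0.024, but 0.056 under equal totals and 0.072 with no trend). With 1 knockout library alone, Coasy and Slc25a42 did not pass, and under equal totals 5 genes passed as higher and 1 as lower.

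Genes that take acyl-CoA into mitochondria and oxidise it moved in both directions. Of 7 listed genes of the carnitine shuttle, Cpt1b, the muscle form of the entry enzyme, rose from 139 to 183 CPM (limma, adjusted p = 0.0046), Cpt2 of the inner membrane fell from 88.8 to 72.3 CPM (0.019, but 0.13 under equal totals and 0.091 with no trend), and 5 did not pass. With the knockout library nearer to control alone, neither passed. Of 15 genes of mitochondrial beta-oxidation 1 rose and 3 fell, with a median log2 ratio of -0.03. Eci1, an isomerase for unsaturated fatty acids, rose from 180 to 224 CPM (0.010), while Acaa2, the last-step thiolase, fell from 265 to 192 CPM (0.0026), Acadm from 761 to 656 CPM (0.020) and Hadh from 418 to 364 CPM (0.038). Under equal totals the adjusted p was 0.29 for Acadm and 0.41 for Hadh, and 5 genes of this list passed as higher and 1, Acaa2, as lower. Acaa2 alone of the list passed with no trend and with 1 knockout library alone. Of 15 genes of peroxisomal beta-oxidation 2 rose and 3 fell, with a median of -0.11. Acox2, the oxidase for branched chains and bile acid precursors, rose from 0.483 to 5.68 CPM (2.9e-05) and Hsd17b4 from 32.3 to 41.1 CPM (0.018), while Scp2 fell from 141 to 110 CPM (0.0070). Under equal totals 3 genes passed as higher and 1 as lower, and with no trend Acox2 alone passed.

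Of 16 PPAR regulators and known PPARα targets, 4 rose and 1 fell, with a median log2 ratio of 0.33. Pdk4, which holds back glucose oxidation, rose from 135 to 454 CPM (limma, adjusted p = 0.00023), Fabp3, the fatty acid binding protein of heart, from 3875 to 5675 CPM (0.00021), and Plin5, which ties lipid droplets to mitochondria, from 41.5 to 58.6 CPM (0.0081, a call lost with the knockout library nearer to control alone). Ucp2, a mitochondrial carrier, fell from 70.7 to 14.6 CPM (1.1e-05). Over all 7 lists, the other thioesterases included, 13 genes rose and 16 fell, and under scaling to equal totals 23 rose and 7 fell. The lists held 6, 12, 12, 7, 15, 15 and 16 listed genes. Of all 15116 genes, 1995 (13.2%) passed as higher and 1966 (13.0%) as lower, and under equal totals 3101 and 1377. The lists were not tested as sets.

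**Figure D5:**
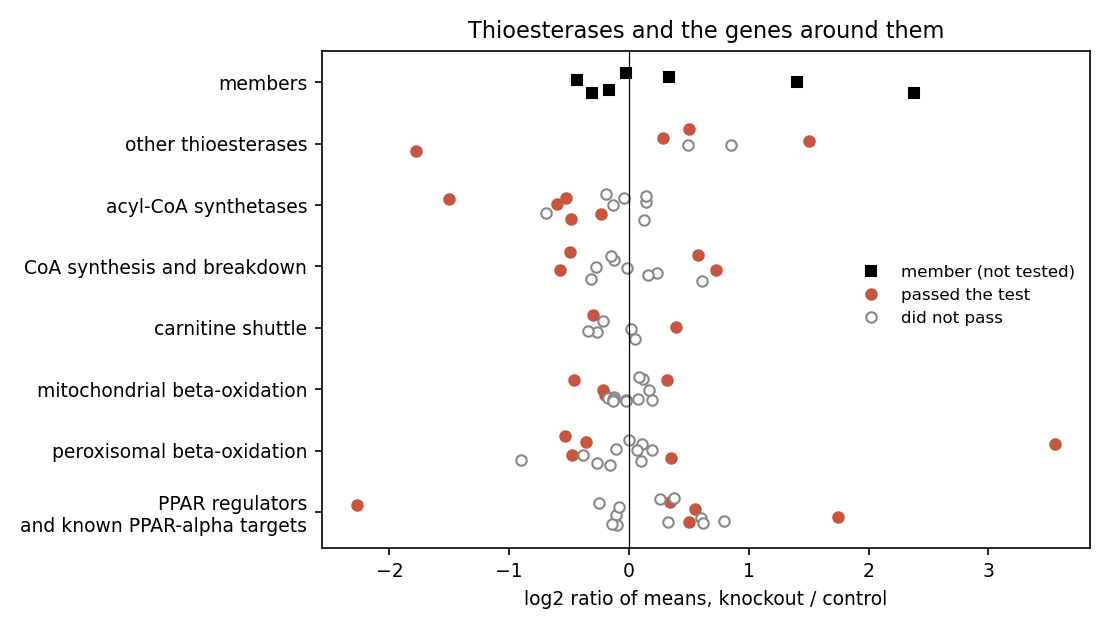
Log2 ratio of means, knockout over control (x axis), of each listed gene by list (y axis). Black squares are the 7 members, which were not tested, red circles genes that passed the test and open circles genes that did not. The synthetases have no red circle right of 0, while 3 of their 5 lose the call under equal totals, and Acox2 is the point farthest right.

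RNA of whole hearts was measured, so fewer cells of a type and less RNA per cell cannot be told apart. All 8 cardiomyocyte markers were listed, with a summed level of 31546 CPM in control (range allowed by the SDs 28403 to 34689) and 26153 CPM in knockout hearts (25078 to 27227), and 5 of 8 fell (under equal totals 3 fell and 1 rose). Summed fibroblast markers were at 544 and 482 CPM (1 of 6 fell, 0 under equal totals), endothelial markers at 209 and 218 CPM (0 of 5 passed the limma test, and 0 at an unadjusted p below 0.05), and macrophage markers at 105 and 81.0 CPM (2 of 5 fell, 1 under equal totals). Of the 5 adipocyte markers, relevant to Acot11, only Cidea was listed, at 24.0 and 17.5 CPM, and Adipoq, Plin1, Cidec and Ucp1 were not. The part of cell make-up in the thioesterase values was not tested.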

How the data were processed

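Bulk RNA of 5 mouse hearts was sequenced by the authors as 3′ tag libraries, with 10 M deduplicated reads ordered per library. The submitters' processing notes list edgeR 4.0.16, STAR 2.7.11, Subread 2.1.1 (with featureCounts), SAMtools 1.22.1 and the build GRCm39, without saying what each did. The authors deposited 1 mean and 1 SD per group and gene, a signal in normalized CPM, and gave no libraries one by one. Other columns hold the authors' own comparison (fold change, F, p-value, adjusted p), which was not used. The mouse is the experimental unit in the study.

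The 2 knockout values follow from mean and SD. The 3 control values lie within mean ± 2 SD/√3 and, where only 1 set of whole reads, or of reads split in 2, fitted mean and SD, were worked back. Letters of libraries are not tied to the labels' numbers. In genes of 0.5 to 5 CPM, whole reads fitted 71.1% of genes in control and 75.7% in knockout. Ratios of members are ratios of means, with SE by error propagation. For all other genes, limma 3.58.1 (R 4.3.3) moderated the rebuilt variances (log2(CPM + 0.5), mean-variance trend, 3 residual degrees of freedom, two-sided, Benjamini-Hochberg over 15116 genes, threshold 0.05). Each p-value sets a group difference against the spread between these libraries, moderated toward that of genes of like level. The control spread on the log2 scale was approximated from mean and SD. Fold changes in the test are on the log2(CPM + 0.5) scale, which understates changes of low genes. Both steps were tried on simulated data. In the simulation for limma all genes had the same dispersion, so it does not show how the test does where genes differ in spread. Where entries shared a symbol, the highest mean was used.

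Members and lists were chosen with earlier results of these data known. All members and other thioesterases are named, and in other lists up to 4 genes that passed with the smallest p, except a gene that is not reported here. Sequences come from RefSeq GRCm38.p6 and GENCODE M21, and only names and gene order were taken from RefSeq genes, since the builds differ. Alternatives were other scalings, pseudocounts of 0.1 and 2 CPM, a minimum of 5 CPM, no trend, and settings that stand for leaving out libraries. In the latter, the knockout library nearer to or farther from control was taken gene by gene. Otherwise the control mean was moved to the highest or lowest that 2 libraries allow, with the control SD kept.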

Additional observations from a re-analysis of the deposited data

How the results depend on the processing

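No paired analysis was possible because the deposited table holds no column of a single library. The log2 ratios of Acot1 (0.93 to 1.68), Acot2 (2.29 to 2.51) and Acot9 (0.29 to 0.47) kept their direction under every alternative run, as did those of Acot8 (-0.43 to -0.18), Acot11 (-0.60 to -0.25) and Acot13 (-0.22 to -0.04), while that of Acot7 lay on both sides of 0 (-0.08 to 0.11). Overlap was counted against the range that the control SD allows. By that range, the 2 members lower without overlap became 0 under equal totals and 1 under equal totals without genes of the mitochondrial genome. Against the control libraries worked back, Acot11 stayed lower under both scalings. With only the knockout library nearer to control, picked gene by gene, they stayed 2, and with only the farther one they became 4. Over all genes, 1995 higher and 1966 lower became 3101 and 1377 under equal totals, and 3710 and 3613 by groups that do not overlap. Leaving out libraries gave 714 to 2231 higher and 605 to 2185 lower. In the pathway lists, 13 higher and 16 lower became 23 and 7 under equal totals, and 9 and 7 with no trend in the prior variance. Leaving out libraries gave 4 to 16 higher and 5 to 18 lower in these lists. Of 274 values of 28 tested list genes, 58 in 17 genes no longer passed. Among these 28 genes, Acot6 and Baat had not passed in the main test, so they had no call to lose. With 3 and 2 libraries, leaving out 1 library leaves few degrees of freedom, and a lone knockout library was assumed to vary like the others. For Acot1 and Acot4, low reads limit the precision. Equal-total scaling and the sum over rows sharing a symbol were computed from means; no member had more than 1 row. Settings that use the libraries worked back, the 0.5 CPM pseudocount for members and the sum of Acot1 and Acot2 were chosen after seeing the data.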

Other observations

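By distance between group means on the log2(CPM + 0.5) scale over the 2 groups, the 3 protein-coding genes nearest to Acot2 were Enah, Nqo1 and Atf4. Enah, an actin regulator, was at 29.2 ± 5.48 CPM in control and 115 ± 0.350 CPM in knockout hearts (distance 0.54). Nqo1, a quinone reductase, was at 47.3 ± 7.33 and 161 ± 18.9 CPM (distance 0.57). Atf4, a transcription factor of the integrated stress response, was at 38.5 ± 3.39 and 248 ± 24.6 CPM (distance 0.65). With 2 group means per gene, nearness says only that levels are alike in both groups.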
